A study of Mus musculus with 8 samples.

Results

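In E14 mouse embryonic stem cells, 6 of the genes that carried intronic N6-methyladenosine (m6A) in their chromatin-bound RNA held groups of intronic peaks called with the SySy antibody: Csnk1e, Ttc3, Icosl, Setd4, Cit and Tor1aip2. The genes were selected on that measured count, 2 or more intronic SySy-called peaks each, so the count itself is a description here. The 6 are only a part of the genes that reached it, chosen with earlier results of these data known. All peaks with their midpoint in the same-strand span of these genes were taken, which gave 47 of the 17068 peaks in the data, 33 of them intronic and SySy-called. Among the 5584 genes with a peak of any list, 216 genes (3.87%) reached 2 intronic SySy-called peaks. At the threshold, 116 genes had exactly 2, as did Tor1aip2, and 357 genes just outside it had exactly 1.

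The study immunoprecipitated m6A from RNA bound to chromatin, where transcripts not yet spliced are abundant, in these cells, grown in serum and LIF, with no treatment or genetic change. Its 8 libraries form 4 groups of 2: SySy ChrMeRIP, SySy input, Abcam ChrMeRIP and Abcam input, where the precipitated groups differ in the antibody used. Cfg1 lists 5277 peaks called with both antibodies, Cfg2 lists 5472 called with SySy where Abcam stayed under the calling threshold, and Cfg3 lists 6319 called with Abcam only. The lists pool the duplicates and carry no peak height, so no count below has a replicate error, and depth is unknown. The cell type was checked only through its defining genes. Of 8 embryonic stem cell markers, 7, among them Pou5f1, Sox2 and Nanog, carried a SySy-called peak, against 19.0% of protein-coding genes. Dppa5a carried none, and a peak is no measure of expression.

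m6A is placed on adenosines of nascent transcripts by the METTL3/METTL14 complex, mostly within the DRACH sequence, of which GGACU is the best known form. In mature mRNA the mark is known to gather near stop codons and in long last exons. An intron of the main transcript can hold an exon of another one. A last exon of this kind ends the transcript early with its own 3′ UTR, an alternative 5′ splice site makes the upstream exon longer, and an alternative first exon starts a shorter transcript.

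The 6 genes encode unrelated proteins. Csnk1e encodes casein kinase 1 epsilon, which phosphorylates the PERIOD proteins of the circadian clock. Ttc3 encodes a ubiquitin ligase with tetratricopeptide repeats. Icosl encodes the B7-family ligand of the T-cell receptor ICOS. Setd4 encodes a SET-domain methyltransferase. Cit encodes citron kinase, which acts in cytokinesis, and Tor1aip2 encodes LULL1, the cofactor of torsin ATPases in the endoplasmic reticulum membrane.

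The sequences below come from GRCm38 (the coordinates of mm10), are written 5′ to 3′ on the transcribed strand with T for U, and show where the motif falls. The first set gives 30 nt across a 5′ splice site, 10 exonic and 20 intronic, with the 3 exonic and 6 intronic bases of the splice site in capitals. They are shown because some peaks of Tor1aip2, Setd4 and Cit lay across or within 500 nt of these borders, whereas those of Csnk1e, Ttc3 and Icosl lay farther into the intron.
Csnk1e intron 7 (chr15:79424820-79424849, minus): gctcaaaTTCGTGAGTcaccggcaggccaa
Ttc3 intron 9 (chr16:94393165-94393194, plus): ggcagttTAGGTAAGTtggttaattactaa
Icosl intron 5 (chr10:78077164-78077193, plus): gaacttaCAGGTGAGTctgcctgcagggag
Setd4 intron 7 (chr16:93590854-93590883, minus): acatgtgCAGGTGAGAgggcggcatggaga
Setd4 alternative site in intron 7 (chr16:93590236-93590265, minus): cctcaccTGGGTAAGGgcgagatggaggag
Setd4 intron 8 (chr16:93589891-93589920, minus): gtctcggCAGGTTGGActggctgatagtgg
Cit intron 10 (chr5:115925490-115925519, plus): gtgtcacAAGGTATCTatctccacagccgg
Tor1aip2 intron 3 (chr1:156051614-156051643, plus): tgtgttgCTAGTAAGTgactgacagtattc

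The second set gives 25-nt windows around GGACT, in capitals, for the intronic peaks of Csnk1e, Ttc3 and Icosl, all of which lay in an alternative 3′ UTR where they held the motif, and for the border peak of Tor1aip2. Each window is named by the gene and by the position of the motif.
Csnk1e, 1415 nt into intron 7 (chr15:79423411-79423435, minus): tttctgtctgGGACTggagtgagag
Csnk1e, 2126 nt into intron 7 (chr15:79422700-79422724, minus): tctgcagacaGGACTccttgagcaa
Csnk1e, 2200 nt into intron 7 (chr15:79422626-79422650, minus): cacccccaagGGACTggaatcccca
Ttc3, 2024 nt into intron 9 (chr16:94395188-94395212, plus): ggatacgggaGGACTcttgctctga
Ttc3, 3811 nt into intron 9 (chr16:94396975-94396999, plus): gtggaccccaGGACTcctggcttgg
Icosl, 1502 nt into intron 5 (chr10:78078665-78078689, plus): tagggggcacGGACTccccgatgga
Icosl, 1563 nt into intron 5 (chr10:78078726-78078750, plus): cccacgcagaGGACTggaaattctg
Icosl, 1668 nt into intron 5 (chr10:78078831-78078855, plus): cctgggctcaGGACTaggaagacct
Icosl, 1714 nt into intron 5 (chr10:78078877-78078901, plus): atgcccacatGGACTttttattctt
Tor1aip2, exon side of the border of intron 3 (chr1:156051560-156051584, plus): caactggcttGGACTagaggcctgg
Tor1aip2, 27 nt into intron 3 (chr1:156051640-156051664, plus): attctagactGGACTggtccctgag

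The third set gives whole peaks with GGACT in capitals. The first pair holds 2 motifs each within a short distance, the next reaches across a 3′ splice site, and the last, which holds none, lies just past the annotated end of an alternative transcript.
Setd4 intron 4, Cfg1 (chr16:93598361-93598494, minus): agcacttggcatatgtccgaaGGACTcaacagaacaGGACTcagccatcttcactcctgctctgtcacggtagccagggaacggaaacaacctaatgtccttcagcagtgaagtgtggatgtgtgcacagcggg
Cit intron 10, Cfg1 (chr5:115926150-115926350, plus): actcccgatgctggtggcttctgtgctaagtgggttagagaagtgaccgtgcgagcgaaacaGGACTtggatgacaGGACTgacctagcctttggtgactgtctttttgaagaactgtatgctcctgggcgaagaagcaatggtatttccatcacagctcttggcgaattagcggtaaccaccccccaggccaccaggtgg
Setd4 intron 7 to exon 8, Cfg2 (chr16:93590034-93590248, minus): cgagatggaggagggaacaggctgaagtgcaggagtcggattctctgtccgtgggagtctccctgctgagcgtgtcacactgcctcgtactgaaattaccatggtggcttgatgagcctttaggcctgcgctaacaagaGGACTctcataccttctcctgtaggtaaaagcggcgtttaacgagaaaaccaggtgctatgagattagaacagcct
Csnk1e intron 7, Cfg2 (chr15:79422280-79422433, minus): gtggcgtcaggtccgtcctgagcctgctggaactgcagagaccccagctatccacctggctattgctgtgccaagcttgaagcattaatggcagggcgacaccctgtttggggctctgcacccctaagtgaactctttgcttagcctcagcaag

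Intronic refers here to the representative transcript of each gene, the one with the longest coding sequence. By that definition Csnk1e and Ttc3 held 7 intronic SySy-called peaks each, Icosl and Setd4 held 6, Cit held 5 and Tor1aip2 held 2. Of the 33 peaks, 15 were in Cfg1 and 18 in Cfg2. Icosl and Setd4 each had 4 Cfg1 and 2 Cfg2 peaks, whereas Csnk1e and Ttc3 each had 2 Cfg1 and 5 Cfg2 peaks. Cit had 2 and 3, and Tor1aip2 had 1 of each list. These counts depend on the representative transcript: with the longest spliced transcript in its place, Csnk1e, Icosl and Setd4 had 0 intronic SySy-called peaks, Ttc3 had 7, Cit 5 and Tor1aip2 2. In Icosl all 6 peaks and in Csnk1e 6 were then exonic, whereas Setd4 had 0 exonic ones too, all its SySy-called peaks being outside that transcript. The 33 peaks were pieces of only 12 peaks as first called, which had been split between their summits, so they are not 33 separate observations. With peaks up to 100 nt apart joined, they formed 14 regions in 9 introns. In each of the 6 genes some peaks lay that close to each other, as they did in 65.7% of the 216 genes with 2 or more. No peak of any list lay on the opposite strand within the 6 gene spans.

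Most of these intronic positions were exonic in another transcript of the same gene. In GENCODE, 27 of the 33 midpoints (81.8%) lay in an exon of a transcript other than the representative one, against 36.7% of all 888 intronic SySy-called peaks, the 33 included. The last exon of another transcript held 22 of them (66.7%), against 21.4% of the 888. The 3′ UTR of another coding transcript held 19 (57.6%), against 12.5%. All 19 lay in Csnk1e, Ttc3 and Icosl, with 6, 7 and 6, and the other genes had 0. Of the 22, Tor1aip2 held 2, Cit 1 and Setd4 0. The last-exon share ranged from 57.7% without Ttc3 to 81.5% without Setd4, and the 3′ UTR share from 46.2% to 70.4%. Transcripts annotated as retained introns covered 10 (30.3%), against 15.5%, but 6 of these were in Icosl, and without that gene the share was 14.8%. The share of 81.8% ranged from 76.9% without Ttc3 to 88.9% without Setd4, and it was 63.6% against 18.7% of the 888 when only protein-coding transcripts counted. By gene, these exons held more than 50% of the intronic peaks in 5 of the 6, the exception being Setd4 with 3 of 6. Of the 216 genes, 31.9% were above that share. A peak inside overlapping genes counted for each of them in the 216. Some clustered genes with 5 intronic peaks had 0 regions and 0 peaks exonic in another transcript assigned to them. Such genes could not be above that share, so 31.9% may be too low as a baseline. With exons of curated RefSeq transcripts in place of GENCODE, an annotation tried after the data had been seen, the share was 42.4%, against 15.7% of the 836 peaks whose gene had RefSeq transcripts under the same symbol. Curated RefSeq exons covered all 6 Icosl peaks, 6 of 7 in Csnk1e and both in Tor1aip2, and none in Ttc3, Setd4 and Cit. No test was made of these shares, since peaks of 1 gene share an exon. The 6 genes were also chosen among the 216 with earlier results of these data known.

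**Figure D1:**
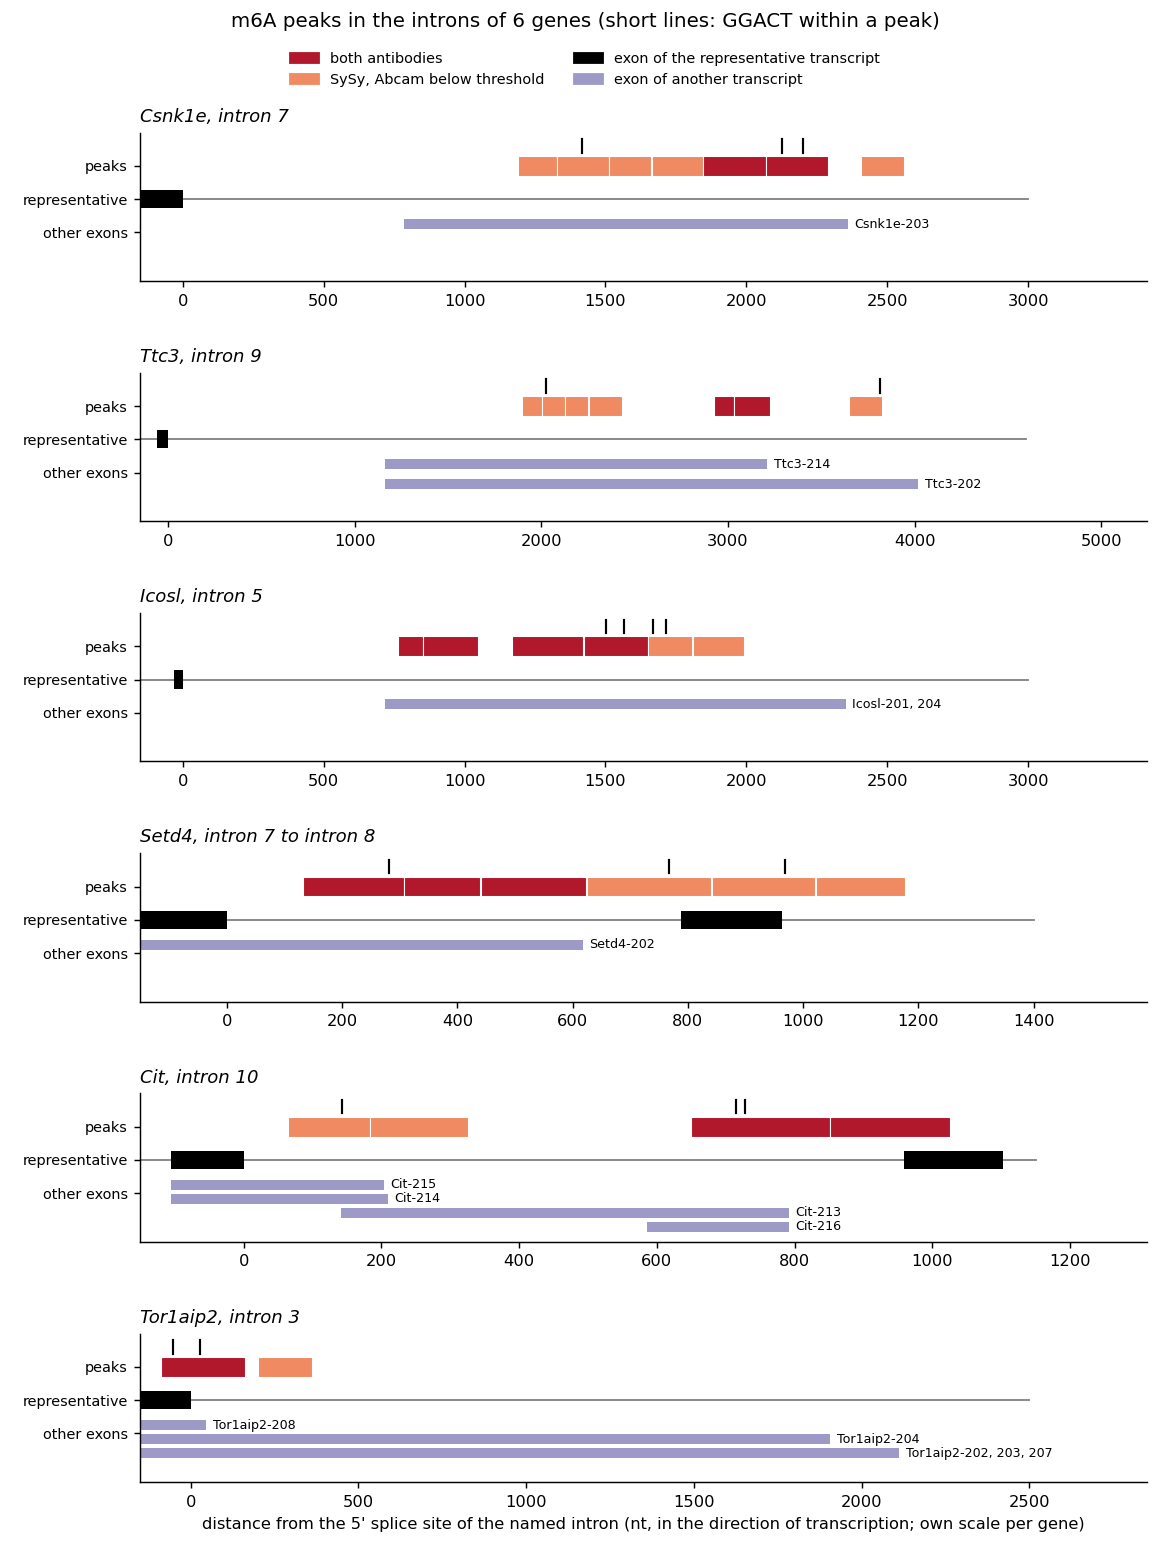
Peaks, exons of the representative transcript and exons of other transcripts along the main host intron of each gene, in nt from its 5′ splice site, with Cfg1 peaks in red and Cfg2 peaks in orange and short lines for GGACT. In Csnk1e, Ttc3 and Icosl the peaks start 764 nt or more into the intron and, apart from the last Csnk1e peak, sit over an exon that lies wholly inside it, whereas in Setd4, Cit and Tor1aip2 some peaks lie across a border of the representative exons.

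In Csnk1e, Ttc3 and Icosl the peaks lay in 1 intron each and, apart from 1 Csnk1e peak, over a last exon that lies wholly inside it. Csnk1e (minus strand, chr15:79417856-79455566) had its 7 peaks in intron 7, of 3829 nt. Their midpoints were 1259, 1421, 1588, 1755, 1958, 2180 and 2484 nt into the intron, counted from the 5′ splice site, the first 4 and the last from Cfg2 and the others from Cfg1. The first 6 fell in the last exon of Csnk1e-203, which begins 785 nt into the intron, is 1575 nt long and ends a coding sequence of 368 residues in place of the 416 of Csnk1e-201. Counted along that transcript, they lay 357 to 1278 nt past its stop codon, all in the 3′ UTR. The seventh began 47 nt beyond the annotated end of this exon and lay in no annotated exon. An AATAAA or ATTAAA hexamer, the usual signal for cleavage and polyadenylation, began 20 nt before that end. The gene also had 1 exonic peak, in Cfg1, in the 3′ UTR of the representative transcript, 153 nt past its stop codon.

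Ttc3 (plus strand, chr16:94370618-94469343) had its 7 peaks in intron 9, the longest of its 44 introns with 10139 nt. The midpoints lay 1949, 2065, 2190 and 2343 nt into the intron for 4 Cfg2 peaks, 2978 and 3128 nt for the 2 Cfg1 peaks and 3739 nt for the last Cfg2 peak. All 7 fell in the last exon of Ttc3-202, which begins 1161 nt into the intron and is 2861 nt long. That transcript encodes 300 residues, against 1979 in the representative Ttc3-235, and the peaks lay 731 to 2521 nt past its stop codon. A transcript annotated for nonsense-mediated decay, Ttc3-214, shares the start of the exon and covered 6 of the 7. Neither hexamer occurred in the last 50 nt of these exons, while 69.5% of the 21938 ends of representative coding transcripts held one there. Farther on, 1 Cfg1 peak lay in the coding sequence of exon 32.

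Icosl (plus strand, chr10:78069302-78083913) had its 6 peaks in intron 5, the longest of 5 introns with 5996 nt. The midpoints were 808, 951, 1295 and 1538 nt into the intron for the Cfg1 peaks, and 1730 and 1900 nt for the Cfg2 peaks that followed. All 6 fell in the last exon of Icosl-201, 720 nt into the intron and 1633 nt long, between 78 and 1170 nt past its stop codon. For this gene the label intronic rests on the choice of transcript: the representative Icosl-203 is annotated with an incomplete 5′ end and transcript support level 5, whereas Icosl-201, of 322 residues, is the principal transcript by APPRIS with support level 1. Relative to Icosl-201 the peaks were 3′ UTR peaks, and Icosl had no other peak of any list.

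In Setd4, Cit and Tor1aip2, 1 of the intronic peaks of each gene crossed a splice site of the representative transcript, and the others did not. Setd4 (minus strand, chr16:93583457-93604063) had an unbroken tract of 6 SySy-called peaks from intron 7 through exon 8 into intron 8, each 1 nt from the next. Its intronic midpoints were 221, 375 and 533 nt into intron 7 for 3 Cfg1 peaks, and 733 nt into it for a Cfg2 peak that reached 52 nt into exon 8. The next Cfg2 peak had its midpoint in the coding sequence of exon 8 and ran 58 nt into intron 8, and the last lay 137 nt into intron 8. The 3 Cfg1 peaks fell in exon 7 of the retained-intron transcript Setd4-202, which runs 618 nt past the representative 5′ splice site to an alternative one. The Cfg1 peak nearest to that alternative site ended at 624 nt, and the Cfg2 peaks followed. A seventh SySy-called peak stood alone in intron 4, in Cfg1, 785 nt into it and in no other GENCODE exon.

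GGACT stood at the border in this gene. At the 5′ splice site of intron 8 the motif overlapped the splice site, and its adenosine was intronic base 6, and the splice site matched the consensus NAGGTNAGT at 5 of its 7 fixed letters. Near the 3′ splice site of intron 7, the motif lay at bases 765 to 769 of the 788-nt intron. The isolated peak in intron 4 held a pair of motifs, with adenosines at 741 and 756 nt.

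Cit (plus strand, chr5:115845278-116008947) had 4 of its 5 intronic peaks in intron 10, of 959 nt. The Cfg2 peaks had midpoints 124 and 255 nt into the intron and the Cfg1 peaks at 751 and 939 nt, the last one reaching 66 nt into exon 11. Different annotated exons covered them: the last exons of the retained-intron transcripts Cit-214 and Cit-215 run past the 5′ splice site and hold the first peak, and the first exon of the noncoding Cit-213, from 142 to 792 nt, covers those that followed, at 255 and 751 nt. Cit-216 starts within the same stretch, at 587 nt, and shares its end. The peak with its midpoint at 751 nt reached from 651 to 851 nt, across that shared end, and held 2 GGACT motifs, at 713 to 717 nt and at 727 to 731 nt. The peak at the 3′ splice site and the fifth peak, 2603 nt into intron 22, were in no other GENCODE exon.

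Outside the representative Cit-202, which is annotated without UTRs, 2 more SySy-called peaks lay in the 3′ UTR of Cit-201, 285 nt past its stop codon in Cfg2 and 1441 nt past it in Cfg1.

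Tor1aip2 (plus strand, chr1:156035403-156068861) had the fewest intronic peaks of the 6 genes and the most exonic ones. Its Cfg1 peak lay across the 5′ splice site of intron 3, with 89 nt in exon 3 and 161 nt in the intron, and its midpoint was 36 nt into the intron. Placed by its first base it was exonic, which left the gene 1 intronic peak. The Cfg2 peak followed at 282 nt. The Cfg1 peak held GGACT on each side of the splice site, with adenosines at -52 and 29 nt from it, and the Cfg2 peak held none. Exon 3 runs on past this site as the last exon of Tor1aip2-202, Tor1aip2-203, Tor1aip2-204 and Tor1aip2-207, coding transcripts of 131 residues against 502 in the representative Tor1aip2-205. The locus is known to encode the short protein IFRG15 beside LULL1. In these transcripts the first midpoint was in the 5′ UTR and the other in the coding sequence, at -368 nt from the stop codon.

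The exonic peaks of Tor1aip2 were around the stop codon of the representative transcript. The Cfg1 peaks lay at -369, -105 and 288 nt from it, negative values being upstream, and the Cfg2 peak at 534 nt.

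Across the 6 genes, 7 SySy-called peaks were exonic, and 4 genes had any, where 51.5% of the 573 genes with an intronic SySy-called peak did. The 6 genes held 5 Abcam-only peaks. Setd4, Cit and Tor1aip2 had 1 each, in an intron, and Ttc3 had 2 upstream of its representative transcript. Thus 3 of 6 genes held an Abcam-only peak in an exon or intron of the representative transcript, against 52.0% of the 573. In Cit the Cfg3 peak lay in intron 22, with its midpoint 2343 nt into it and the SySy-called peak of that intron at 2603 nt. In Setd4 it lay in intron 4 as well, at 2232 nt, while the Cfg1 peak there was at 785 nt. Csnk1e and Icosl had no Abcam-only peak.

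GGACT and the place in the intron were near the values of intronic SySy-called peaks in general. GGACT occurred in 12 of the 33 peaks (36.4%) and in 38.4% of the 888, while 16.5% of the 3092 intronic Cfg3 peaks held it. The 12 peaks, 6 in each of Cfg1 and Cfg2, held 18 motifs in 5507 nt, and every gene had at least 1. Only the transcribed strand was searched, and overlapping matches were counted. With GGACA and GGACC counted too, the share was 63.6%, against 66.7% of the 888. Midpoints were within 500 nt of the 5′ splice site for 7 peaks (21.2%), in Setd4, Cit and Tor1aip2, against 29.7% of the 888. The first 25% of the intron held 11 (33.3%), against 40.5%. The median distance from the 5′ splice site was 1421 nt, against 1732 nt, in introns with a median of 3829 nt over the peaks, against 6190 nt.

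**Figure D2:**
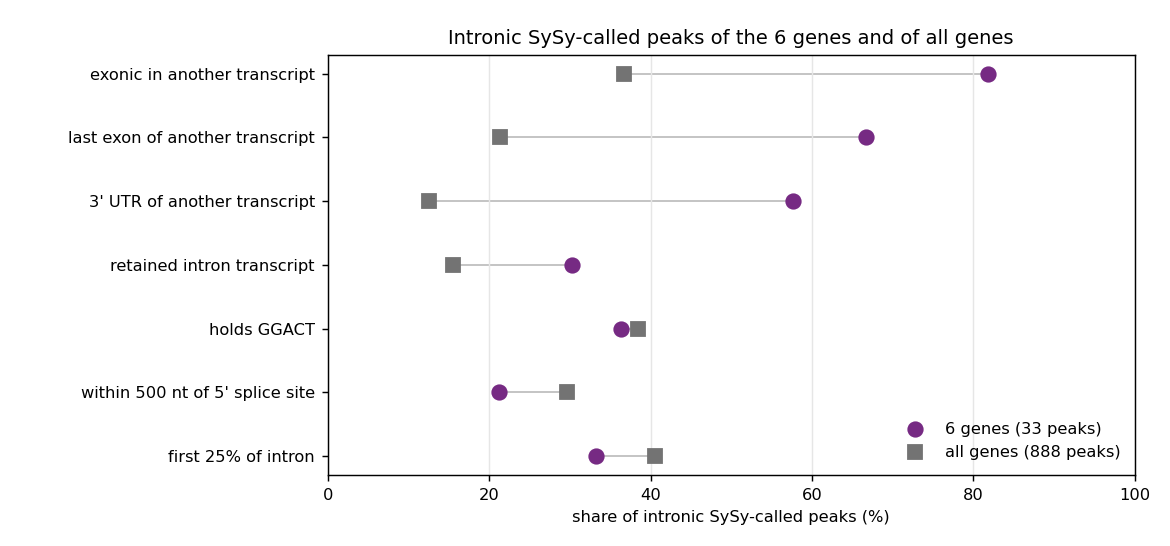
Share of intronic SySy-called peaks with each feature (horizontal axis, percent), for the 33 peaks of the 6 genes (circles) and the 888 of all genes (squares). The 4 annotation measures are higher in the 6 genes, 81.8% against 36.7% for exons of another transcript, while GGACT and both position measures are near or below the values of all genes. The 3′ UTR share comes from Csnk1e, Ttc3 and Icosl alone.

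The 5′ splice sites of the 9 host introns matched 5 to 7 of the 7 fixed letters of the consensus NAGGTNAGT, where the median over introns of representative coding transcripts was 5. Those of Ttc3 intron 9 and Icosl intron 5 matched all 7, as did 7.93% of the 189727 introns. Csnk1e intron 7, Setd4 intron 8, Cit intron 10 and Tor1aip2 intron 3 matched 5, and 87.7% of introns matched as many or more. The other 3 matched 6, which 48.1% reached. The match is a count of letters and no measure of splicing.

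GC content varied widely among the peaks of a gene. The peaks had a median GC content 1.83 percentage points above their host intron (SD 6.62 over 33 peaks), against 2.61 points over the 888, and 19 of 33 were above it, against 65.3%. Icosl had the highest median difference, 6.45 points, and Csnk1e the lowest, -3.37 points. In Ttc3, whose host intron has a GC content of 39.8%, single peaks ranged from -12.4 to 17.9 points. Peaks of Icosl were above their intron in all but 1 case, at -7.40 points.

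**Figure D3:**
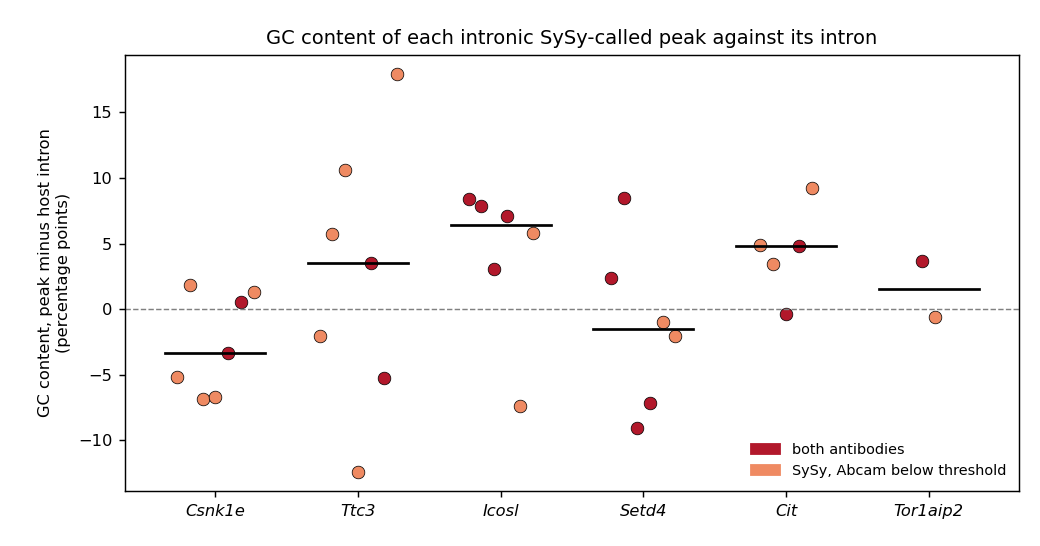
GC content of each intronic SySy-called peak minus that of its host intron (vertical axis, percentage points), by gene, with Cfg1 peaks in red, Cfg2 peaks in orange and the median of each gene as a bar. The values of Ttc3 reach from -12.4 to 17.9, and those of the 6 genes overlap.

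The relatives of the 6 genes were examined as families. Apart from the circadian clock and nuclear envelope lists, each list holds members, which were selected for their intronic SySy-called peaks. Counts that include a member are thus partly set by that selection. A SySy-called peak was held by 19.0% of protein-coding genes and an intronic one by 2.41%. All 7 genes of the torsins and their cofactors had a SySy-called peak, but of these only Tor1aip2 had an intronic one, and Tor1a, Tor1b, Tor2a, Tor3a, Tor4a and Tor1aip1 had 1 exonic peak each. Among the casein kinase 1 genes, 5 of 6 had a SySy-called peak and 3 an intronic one. Besides the member Csnk1e these were Csnk1g1, with 2 intronic peaks, and Csnk1a1, with 1. Of 10 circadian clock genes, 3 had a SySy-called peak, and Clock had an intronic one. Of 10 B7 ligands and receptors, 2 had a SySy-called peak and only Icosl an intronic one. In the SETD family 8 of 11 genes had a SySy-called peak, Setd2 having the most with 9, all exonic, and Setd4 was the only one with intronic peaks. Of 13 cytokinesis genes 6 had a SySy-called peak, and Kif23, a kinesin of the central spindle, had 2 intronic ones beside those of Cit. Of 11 nuclear envelope genes 5 had a SySy-called peak and none an intronic one. Ttc13, with 3 intronic peaks, was the only other one of 15 tetratricopeptide Ttc genes with any.

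Ttc3 and Setd4 lie on mouse chromosome 16, in the stretch whose human counterpart is on chromosome 21. Of 20 genes listed there, 9 had a SySy-called peak and 5 an intronic one. Of the 5, Setd4 and Ttc3 were there by selection, and the others were Brwd1 with 4, Dyrk1a with 1 and Runx1 with 1.

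Measured by the counts of exonic and intronic peaks in the 3 lists, Csnk1e and Ttc3 were identical to each other. The next nearest genes to them, 4 of them tied, were at a summed difference of 3. Setd4 was nearest to Icosl, at a summed difference of 2, then to Gm44748 and Sbno2 at 3. Cit was nearest to Gm10130 and Gm44748, and Tor1aip2 to Nudcd3 and Pced1b, at 1. By the count of intronic SySy-called peaks alone, Macf1 stood above all members with 13, Orc1 held 7 as did Csnk1e and Ttc3, and Dst, Orc3 and 4732471J01Rik held 6. Of the 13 peaks of Macf1, 11 were exonic in another transcript, as were all 6 of Dst and 2 of the 6 of Orc3. Of the 7 peaks of Orc1 and the 6 of 4732471J01Rik, 0 were. Among genes with 5 peaks, as in Cit, all 5 were exonic in another transcript in Gcnt2 and in Zfp451. In Utp14a 3 were, in Spen and Wwox 1 each, and in Pros1, Platr22 and the predicted or clustered genes 0.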

How the data were processed

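The deposited files were 3 peak lists (BED intervals with a name and strand), made by the authors from pooled duplicates of each antibody and its input. By the methods and the submitters' processing notes, peaks were called with MACS2 2.1.1 (HOMER is also named), split at summits and trimmed to 125 nt on each side, and assigned a strand. The coordinates as deposited are on mm10. The deposited score was 0 for all 17068 peaks, so peak height was not used. The kit is given as TruSeq in the labels, and as different kits for the antibodies in the methods.

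Peaks were placed by midpoint on their strand with GENCODE vM21 on GRCm38.p6, an earlier release than that of the study, with 1 representative transcript for each of 35325 genes (longest coding sequence, or longest noncoding transcript). The BED starts were raised by 1 to give 1-based, closed intervals. Positions, distances and sequence windows were first tested on simulated positions. For 1 peak, a strand entry with an extra sign was taken as plus. In counts of genes, an intronic peak inside overlapping genes counted for each of them. Older symbols in the lists were matched through RefSeq names. No test was run, because no list gives values by library. The members and gene lists were chosen with earlier results of these data known. Genes named are the members, list genes with intronic SySy-called peaks or the most SySy-called peaks, genes with the most intronic SySy-called peaks and the nearest by peak counts, some predicted or clustered genes left unnamed. Software was Python 3.11.15, NumPy 2.4.6, SciPy 1.17.1 and Matplotlib 3.10.9.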

Additional observations from a re-analysis of the deposited data

How the results depend on the processing

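No paired analysis was possible because the lists pool the duplicates and carry no replicate columns, and for the same reason no replicate could be left out and no depth or stricter calling threshold could be applied. With the longest spliced transcript as representative, 14 SySy-called peaks in 7 regions, in Ttc3, Cit and Tor1aip2, were intronic, 19 were exonic, and 9 genes on the lists had an intronic one in place of 14. With all annotated transcripts counted as exonic, 6 were intronic and 36 exonic. With Cfg1 alone, 15 were intronic, in 8 regions. The share exonic in another transcript was 63.6% with protein-coding transcripts only, and, with annotations chosen after the data were seen, 42.4% with curated and 60.6% with all RefSeq transcripts, against 15.7% and 26.9% of the 836 peaks in genes with a RefSeq match. The annotations did not mark the same peaks. All RefSeq transcripts covered 3 Setd4 peaks, each in no other GENCODE exon, and 0 of the 7 in Ttc3. The GGACT share was 63.6% with GGACA or GGACC and 69.7% with AGACT or GAACT counted too, against 66.7% and 73.1% over all genes. A limit of 1000 nt from the 5′ splice site took in 42.4%, against 40.5% over all genes. The 14 regions became 33 with no gap allowed and 8 with gaps of up to 500 nt. The cause of these shifts was not tested. The other 29 values of these totals and shares stayed within 1.5 times the main count, its 95% Wilson interval or, for GC content, 1 SD. All Abcam-only counts were among them, but they cover the whole gene span, so the choice of representative transcript could not change them. The Wilson interval served only as a yardstick, since it takes the 33 peaks as separate observations, which they were not.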
